A study of Mus musculus with 4 samples.

Results

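The genes described here are the actin isoforms of the mouse together with serum response factor and its myocardin-family cofactors: Acta1, Actc1, Acta2, Actb, Actg1, Actg2, Srf, Myocd, Mrtfa and Mrtfb. They were taken by symbol, 10 genes of the 22322 in every library, and 9 of them passed the low-count filter and were tested. Actg2 was the exception. The data were RNA-seq libraries of cardiomyocytes, the contracting muscle cells, freed from mouse hearts by Langendorff perfusion, in which an enzyme solution is run backwards through the aorta into the coronary vessels. Of the 4 libraries, 2 came from mice with transverse aortic constriction (TAC), a band that narrows the aorta and loads the left ventricle with pressure, and 2 from sham-operated mice. All mice were male, were operated at 2 months of age and were followed for 14 weeks, although the methods also use 14 weeks for the age of the mice at cell isolation. The labels name neither a strain nor a transgene. Each library held RNA from part of the cells of 1 heart, so n = 2 mice per group throughout.

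Actin is the thin filament protein of muscle and the filament of the cytoskeleton in every cell. The adult mouse ventricle uses mainly the cardiac alpha-actin Actc1, while the skeletal alpha-actin Acta1, abundant in the fetal heart, is a well-known part of the fetal gene program that returns in the overloaded heart. Acta2 and Actg2 are smooth muscle actins, and Actb and Actg1 are the cytoplasmic actins. Srf is a transcription factor that binds a short DNA element called the CArG box, and it acts with myocardin (Myocd) or with the myocardin-related factors Mrtfa and Mrtfb, which bind free actin monomers and move to the nucleus when these are used up.

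Library depth ranged from 24237777 to 32118323 counts, with 14495 to 14949 genes detected, and mitochondrial transcripts took 39.8% to 41% of counts in 3 libraries and 47.4% in TAC 1. The edgeR quasi-likelihood test called 626 genes (5.01%) of 12499 at an adjusted p of 0.05, of which 322 (2.58%) were higher and 304 (2.43%) lower in TAC. TAC 1 stood apart from the other libraries. The chi-square per degree of freedom of counts was 9.19 between the sham libraries and 31.3 between the TAC libraries, whereas TAC 2 against the sham libraries gave 26.2 and 25.6 and TAC 1 against them 70.9 and 58.7. By this measure alone, TAC 2 was nearer to both sham libraries than to TAC 1. It used raw counts scaled only by library totals, mitochondrial genes included, so the larger mitochondrial share of TAC 1 enters it. Nearness without mitochondrial genes was not tested. Without TAC 1, Acta1 was at 2.39 (edgeR adjusted p = 0.00202) and Actg1 at -0.83 (0.0459), both still called, and 301 genes were called in all. Cardiomyocyte markers were at 73385 to 81261 summed CPM, or counts scaled to a common library size, in sham and 74059 to 77036 in TAC, with edgeR calling 0 of 10, DESeq2 calling 3 (8.34% over all its genes) and 3 at an unadjusted p under 0.05, as had 3438 of all 12499 tested genes. Among them Myl2 (0.41), Ryr2 (-0.38) and Actn2 (0.36) had the largest log2 fold changes. CPM here used library sizes scaled by TMM, a method that matches the bulk of genes between libraries.

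Of the 9 tested members, Acta1 and Srf rose and Actg1 fell in TAC, which is 3 calls beside the 5.01% of all tested genes. The TAC libraries lay wholly above the sham libraries for 4 members, Acta1, Actc1, Srf and Mrtfa, and wholly below for 3, Acta2, Actb and Actg1; over all tested genes these shares were 29.8% and 30.3%. Myocd and Mrtfb overlapped. Scaling by total counts moved the median log2 difference of all genes from -0.01 to -0.20 and gave 105 higher and 423 lower genes, 528 in all (4.22%). Under it 2 members were called, Acta1 and Actg1. DESeq2 called 921 of 11045 genes (8.34%) and 4 members, adding Actc1. The plot of FPKM by library gives all members except Actg2.

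**Figure D1:**
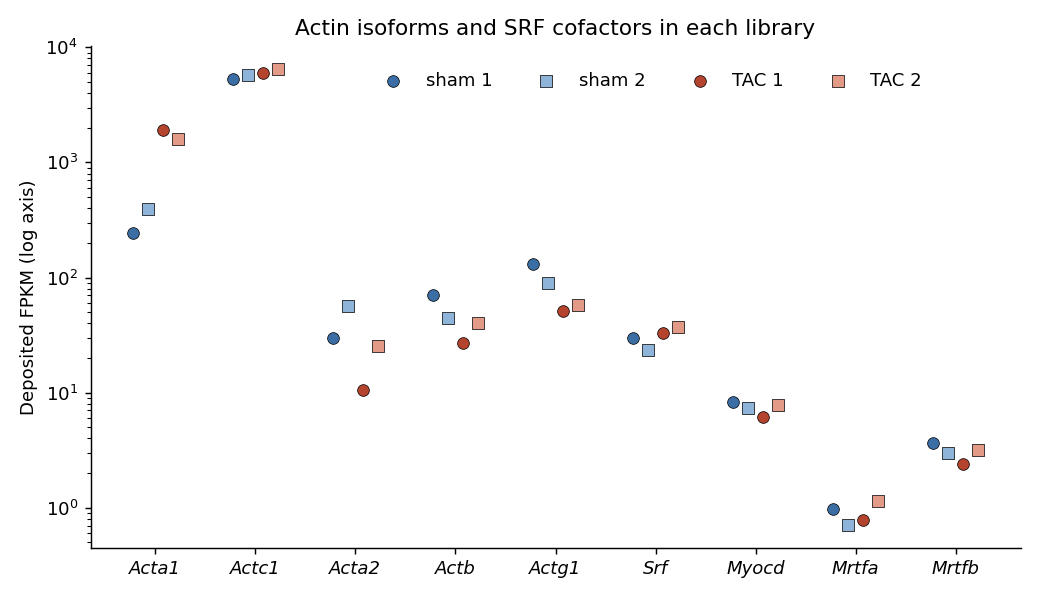
Deposited FPKM (log axis) of 9 members in the 2 sham and 2 TAC libraries, 1 point per library. Actc1 sits highest in every library, at 5349 to 6517 FPKM, and Acta1 goes from 245 and 391 in sham to 1899 and 1587 in TAC.

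FPKM are per transcript length, which allows levels of different genes to be compared. The length implied by counts and FPKM varied between libraries for Acta2 (1.78 to 2.04 kb), Srf (1.89 to 2.43 kb) and Myocd (4.02 to 4.7 kb), so their places are less exact. The order in sham was Actc1, Acta1, Actg1, Actb, Acta2, Srf, Myocd, Mrtfb, Mrtfa and Actg2. Actb (44.2 and 71 FPKM) overlapped Acta2 (29.7 and 56.7), and Acta2 overlapped Srf (30 and 23.2). In TAC, Srf (32.7 and 37.3 FPKM) came next after Actg1, overlapping Actb (26.7 and 40.2) and lying above Acta2 (10.6 and 25.4).

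The 30-base windows below show the CArG box in the promoters of the members that hold one, because the actin genes and Srf itself are textbook targets of Srf. They come from RefSeq, assembly GRCm38.p6, all on the minus strand, and the box, CC, then 6 bases that are each A or T, then GG, is in capitals. The box reads the same pattern on both strands.
Acta1: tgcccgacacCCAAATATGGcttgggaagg
Actc1: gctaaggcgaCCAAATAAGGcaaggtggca
Actg1: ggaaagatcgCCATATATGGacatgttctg
Srf, first box: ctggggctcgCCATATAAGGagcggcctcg
Srf, second box: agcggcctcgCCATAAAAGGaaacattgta

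The windows lie at chr8:123894829-123894858 (Acta1), chr2:114052903-114052932 (Actc1), chr11:120348566-120348595 (Actg1), and chr17:46556225-46556254 and chr17:46556205-46556234 (Srf). The box began 73 bases before the start site in Acta1, 47 in Actc1, 90 in Actg1 and 82 and 62 in Srf. Each promoter window ran from 250 bases before to 50 bases after the start. The windows of Acta2, Mrtfa and Mrtfb held no such box. Only this exact pattern was searched, so an element that departs from it or lies outside the window would be missed. Actb, Actg2 and Myocd were not analysed here. So 4 of 7 members with a window (57.1%) held the box, against 488 of 27025 genes (1.81%) and 158 of 9921 tested genes (1.59%). The 4 carriers moved in different directions or by different amounts: Acta1 and Srf were called higher, Actg1 lower, and Actc1 was not called.

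Acta1, the skeletal alpha-actin (ENSMUSG00000031972, chr8:123891769-123894751, minus strand), had 322 and 542 CPM in sham and 3154 and 2269 CPM in TAC. Both TAC libraries lay above both sham libraries by several times. Its log2 fold change was 2.65 ± 0.26 (SE), a 6.28-fold rise, with an edgeR adjusted p of 0.00489 and a range of 2 SE of 2.14 to 3.16. By deposited FPKM the group means went from 318 ± 103 to 1743 ± 220 (SD, n = 2). Acta1 ranked 14th of 12499 genes by fold change, and among nuclear genes it moved from the 149th and 82nd most abundant in sham to the 11th and 17th in TAC. The gene overlaps Gm20388 on the other strand, which had 258 to 473 counts against 10187 to 87941 for Acta1, and whether the counting used strand was not stated.

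Actc1, the cardiac alpha-actin (ENSMUSG00000068614, chr2:114047282-114053548, minus strand), stayed the most abundant actin in every library. Its CPM were 7182 and 8196 in sham and 10088 and 9516 in TAC. The TAC libraries lay above the sham libraries, by a smaller step than for Acta1. The log2 difference was 0.35 ± 0.12 with an edgeR adjusted p of 0.108, so it was not called. The value depended on scaling, at 0.16 with total-count scaling (adjusted p = 0.467), and DESeq2 gave 0.35 (adjusted p = 0.00555). By FPKM the means were 5567 ± 309 and 6231 ± 404.

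Shares of the 6 actins, computed on FPKM, show the change in make-up apart from the scaling of libraries. Acta1 made up 4.2% and 6.14% of actin in sham and 23.9% and 19.3% in TAC. Actc1 made up 91.8% and 90.9% in sham and 74.9% and 79.2% in TAC. The groups did not overlap for either gene. The mean Acta1 share went from 5.17% ± 1.37 to 21.6% ± 3.28 (SD, n = 2), a difference of 16.4 percentage points, and the mean Actc1 share differed by -14.3 points. With 2 against 2 libraries an exact permutation test, two-sided, cannot go below p = 0.333, which is what it gave for both.

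**Figure D2:**
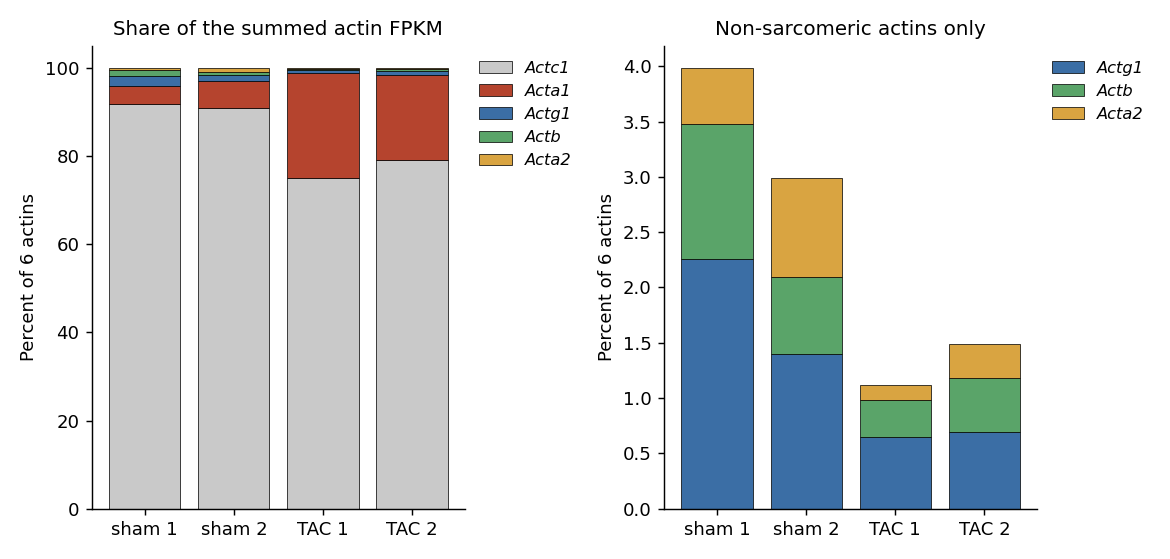
Share of the 6 actins (percent of summed FPKM) taken by each isoform in each of the 2 sham and 2 TAC libraries, with the non-sarcomeric actins alone on a larger scale at right. Acta1 is at 4.2% and 6.14% in sham and 23.9% and 19.3% in TAC, and Actc1 fills nearly all of the rest in every library.

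The ratio of Actc1 to Acta1 in FPKM was 21.9 and 14.8 in sham and 3.13 and 4.11 in TAC. On the log2 scale the ratio of Acta1 to Actc1 went from a mean of -4.17 ± 0.4 to -1.84 ± 0.28, a difference of 2.33. The summed FPKM of both sarcomeric actins was 5593 and 6176 in sham and 7844 and 8105 in TAC. The FPKM of Actc1 was not lower in either TAC library than in sham, so its smaller share came with a larger total. The summed value of all 6 actins went from 6096 ± 383 to 8080 ± 208 FPKM (exact permutation p = 0.333, the smallest possible).

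The counting of reads could mix isoforms only where the genes are alike. The coding sequences of Acta1 and Actc1 differ at 157 of 1134 bases (86.2% identical), and over all pairs of the 6 actins identity was 81.9% to 88.7%. The first 30 coding bases from GENCODE M21 transcripts show the pattern, with capitals where a base differs from Acta1.
Acta1: atgtgcgacgaagacgagaccaccgctctt
Actc1: atgtgTgacgaCgaGgagaccaccgctTtG
Acta2: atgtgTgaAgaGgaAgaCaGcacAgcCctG

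Actc1 differs at 5 of these 30 bases and Acta2 at 9. The longest run of identical bases was 29 between the Acta1 and Actc1 coding sequences, 77 between Acta1 and Actb, and 62 between Actb and Actg1. Of all 50-base windows of its transcript, 2% in Acta1 occur in another actin, none in Actc1, 0.4% in Acta2, 2.6% in Actb and 1.9% in Actg1. So few reads of 50 bases could be shared, although neither read length nor the counting rule was stated. All member counts were whole numbers.

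Among the actins outside the sarcomere, Actg1 fell and Acta2 and Actb were not called. Actg1, the cytoplasmic gamma-actin (ENSMUSG00000062825, chr11:120345690-120348542, minus strand), had 210 and 153 CPM in sham and 103 and 102 in TAC. Both TAC libraries lay below both sham libraries, and close to each other. On the log2 scale Actg1 changed by -0.82 ± 0.14 in edgeR (adjusted p = 0.0243), and over all alternatives tried the adjusted p stayed between 2.04e-07 and 0.0459. Actb, the cytoplasmic beta-actin (ENSMUSG00000029580, chr5:142903115-142906754, minus strand), had 121 and 80.3 CPM in sham and 57.4 and 76.1 in TAC. Its groups did not overlap, but sham 2 and TAC 2 were close. The log2 difference was -0.59 ± 0.2 (edgeR adjusted p = 0.112). It was called without sham 2 (-0.85, adjusted p = 0.00338) and without TAC 2 (-0.81, 0.039), and was -0.27 without sham 1.

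Acta2, the smooth muscle alpha-actin (ENSMUSG00000035783, chr19:34241090-34255590, minus strand), had 55.1 and 104.8 CPM in sham and 21.7 and 51.1 in TAC. Sham 1 and TAC 2 were close to each other, and sham 2 and TAC 1 were the extremes. The log2 difference was -1.14 ± 0.4 (edgeR adjusted p = 0.126), and leaving out 1 library in turn moved it from -1.87 to -0.6. It was called without sham 1 (adjusted p = 0.000889) and without TAC 2 (0.00886). Actg2, the smooth muscle gamma-actin (ENSMUSG00000059430, chr6:83512905-83536265, minus strand), had 2, 2, 1 and 0 counts in sham 1, sham 2, TAC 1 and TAC 2, which is too few to compare.

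The 3 measured non-sarcomeric actins together held 386 and 338 CPM in sham and 182 and 230 in TAC, and their share of actin went from 3.49% ± 0.71 to 1.31% ± 0.26. Most markers of other heart cells were also lower in TAC. Their counts stand beside 30.3% of all tested genes wholly lower and 2.43% called lower. Summed smooth muscle and pericyte markers were at 369 to 415 CPM in sham and 216 to 305 in TAC, with 8 of 12 wholly lower and 1 called, Pdgfrb (-0.86); Tagln (-1.30), Myh11 (-1.23) and Notch3 (-0.97) had the largest differences. Summed fibroblast markers were at 354 to 513 CPM in sham and 198 to 275 in TAC, with 10 of 10 wholly lower and 3 called lower, Gsn (-0.96), Lum (-0.85) and Dcn (-0.82), while Tcf21 (-1.05) and Col1a2 (-0.91) were not called. Summed endothelial markers were at 599 to 712 CPM in sham and 330 to 464 in TAC, with 8 of 10 wholly lower and 3 called, Fabp4 (-0.95), Cdh5 (-0.85) and Egfl7 (-0.54), and Vwf at -0.81 not called.

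Summed macrophage markers were at 66.8 to 132 CPM in sham and 36.3 to 67.5 in TAC, so the sums overlapped, with 6 of 10 markers wholly lower beside 30.3% of all tested genes. Of the 10, edgeR and DESeq2 each called 0, and 5 had an unadjusted p under 0.05, beside 3438 of all 12499 tested genes. Mrc1 (-1.36), Cd14 (-1.16) and Csf1r (-1.02) had the largest differences. No marker of any of these lists was at 0 in a library. In a fit without TAC 1, added for the markers after seeing the data, Cdh5 and Fabp4 were the only markers of these 4 lists that edgeR called, both lower, and Acta2 was at -0.64. Their part in the lower non-sarcomeric actins was not tested. In bulk libraries, fewer cells of a type and less RNA per cell cannot be told apart. Within sham, Myh11 was at 25.3 CPM in sham 1 and 16.1 in sham 2, whereas Acta2 was at 55.1 and 104.8. Within TAC both were lower in TAC 1, with Myh11 at 3.69 and 14.1 CPM and Acta2 at 21.7 and 51.1.

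**Figure D3:**
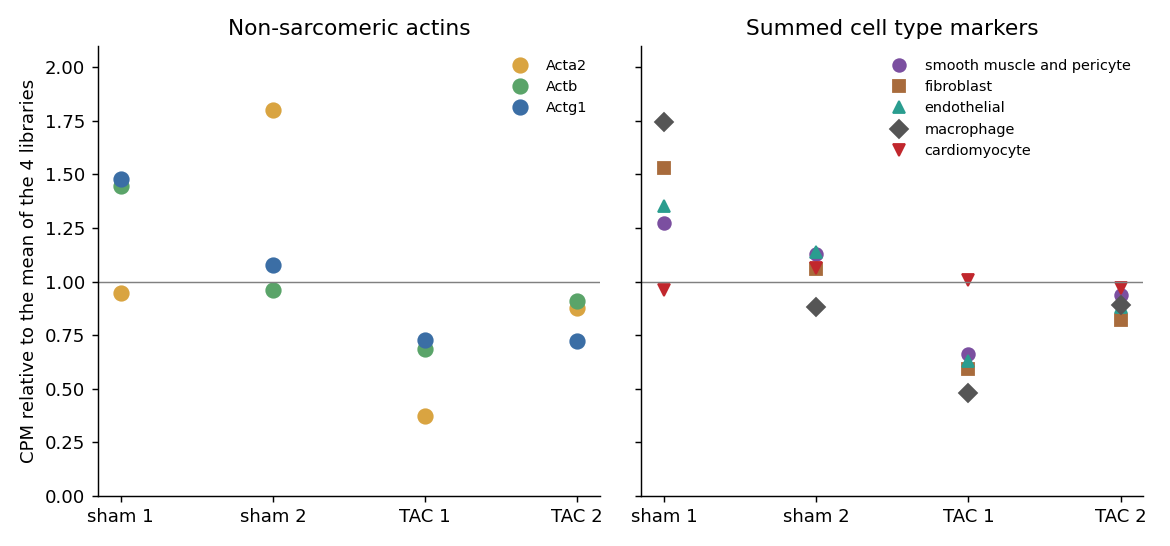
CPM of 3 non-sarcomeric actins (left) and summed CPM of 5 cell type marker lists (right) in each library, both divided by their mean over the 4 libraries, so 1 is the mean. Actg1 is at 210 and 153 CPM in sham and 103 and 102 in TAC, and the summed smooth muscle and pericyte, fibroblast and endothelial markers are also lower in both TAC libraries.

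Srf itself (ENSMUSG00000015605, chr17:46548329-46556175, minus strand), the factor that binds the CArG box, had 52.8 and 54.3 CPM in sham and 76.5 and 70 in TAC. The sham libraries nearly coincided and both TAC libraries were higher. The log2 fold change was 0.45 ± 0.08, a 1.37-fold rise with a range of 2 SE of 0.29 to 0.61 (edgeR adjusted p = 0.0278). The call did not hold with total-count scaling (0.26, adjusted p = 0.213) or without TAC 1 (0.39, adjusted p = 0.085). By deposited FPKM the values were 30 and 23.2 in sham and 32.7 and 37.3 in TAC. These FPKM were not divided by the same length in the 4 libraries, as given above, whereas the implied length of Acta1 was 1.442 to 1.444 kb.

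Myocardin, Myocd (ENSMUSG00000020542, chr11:65176561-65269989, minus strand), the cofactor of heart and smooth muscle, had 31.2 and 31.2 CPM in sham and 33.6 and 31.2 in TAC. The 4 values were nearly equal. The log2 difference was 0.06 ± 0.09 (edgeR adjusted p = 0.706), and its sign turned with total-count scaling (-0.14). Mrtfb (ENSMUSG00000009569, chr16:13256481-13417529, plus strand) had 24.8 and 22.9 CPM in sham and 22 and 25.8 in TAC. Its groups overlapped, and the log2 difference was 0.00 ± 0.11 (adjusted p = 0.999).

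Mrtfa (ENSMUSG00000042292, chr15:81012281-81190757, minus strand) was the least abundant cofactor, with 3.86 and 2.95 CPM in sham and 3.91 and 4.95 in TAC. The log2 difference was 0.37 ± 0.23 (edgeR adjusted p = 0.325), and the nearest sham and TAC libraries were 3.86 and 3.91. Its deposited FPKM, 0.97 and 0.71 in sham and 0.79 and 1.14 in TAC, overlapped. Leaving out 1 library moved the log2 difference between 0.20 and 0.58, and total-count scaling gave 0.19. Mrtfa overlaps Sgsm3 on the other strand, which had 225, 189, 215 and 176 counts against 122, 85, 109 and 121 for Mrtfa in sham 1, sham 2, TAC 1 and TAC 2. Without a stated strand setting, reads of these genes cannot be told apart where they overlap. Relative to Srf in counts, the log2 ratio of Myocd was -0.76 and -0.8 in sham and -1.19 and -1.17 in TAC, and that of Mrtfb was -1.09 and -1.24 in sham and -1.8 and -1.44 in TAC. The log2 ratio of Mrtfa to Srf was -3.78 and -4.2 in sham and -4.29 and -3.82 in TAC, with overlap. The plot of log2 fold changes puts the members side by side.

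**Figure D4:**
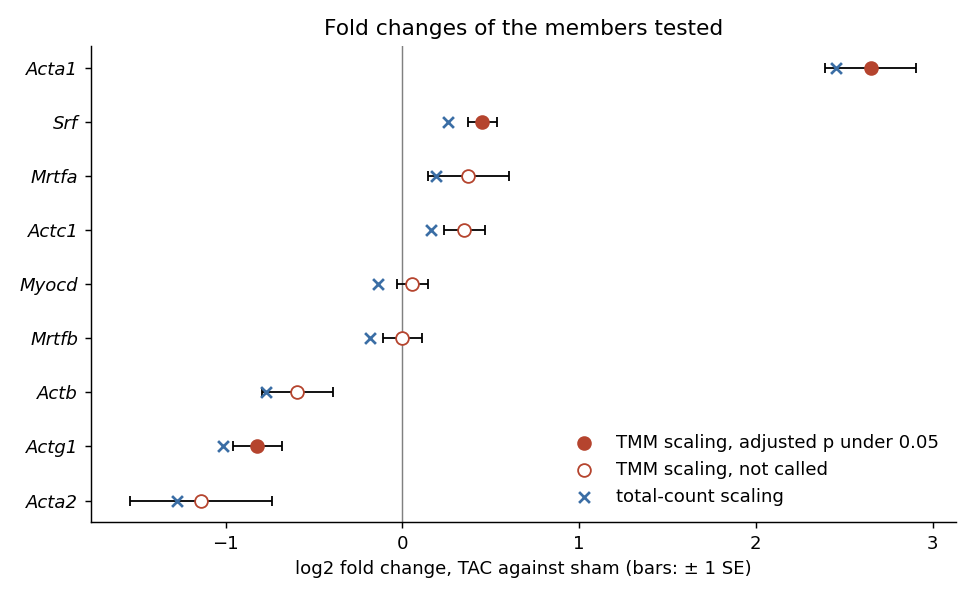
log2 fold change, TAC against sham, of the 9 tested members with TMM scaling (circles, filled where called, with bars of 1 SE) and with total-count scaling (crosses). With TMM scaling Acta1 is at 2.65, Srf at 0.45 and Actg1 at -0.82, and these 3 are called.

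Around the members, lists of genes of the same system were described by their counts. The lists were drawn up with earlier results of these data known, so their called shares are descriptive only. Of 25 tested regulators of Srf, 1 was called, Abra, an actin-binding protein of striated muscle, which had 43.4 and 38.2 CPM in sham and 229 and 108 in TAC. Abra rose by 2.05 ± 0.3 on the log2 scale in edgeR (adjusted p = 0.0165). The list's median log2 difference was 0.01, beside -0.01 for all genes, and 7 of 25 were wholly higher and 10 wholly lower, where 29.8% and 30.3% of all tested genes were. The single call is 4% of the list, beside 5.01% of all tested genes. Elk3, a ternary complex factor, had the next largest difference (-0.61) and was not called by edgeR (adjusted p = 0.0891). Elk3 was called by DESeq2 (0.0483), without a low-count filter, without sham 2 and without TAC 2, and its difference was -0.35 without sham 1.

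Of 22 tested MRTF-SRF target genes, edgeR called 5, all higher: Tpm2, a tropomyosin (1.75), Ccn2, a secreted matricellular protein (1.02), the fibronectin receptor subunit Itga5 (0.80), Fhl1, a LIM protein of the sarcomere (0.63), and the focal adhesion protein Zyx (0.62). Ccn2 had 44.1 and 52.2 CPM in sham and 110 and 84.5 in TAC. Tagln, at -1.30, was not called (edgeR adjusted p = 0.123) but was without TAC 2 (-2.39) and without a low-count filter, and stood at -0.67 without TAC 1, and the list's median was -0.09. Wholly higher and wholly lower genes numbered 6 each, beside 29.8% and 30.3% of all tested genes. DESeq2 called 4 higher and 1 lower, Myh9, which is named after its values were seen. The 5 are 22.7% of the list, beside 2.58% of all tested genes called higher. With total-count scaling 3 of the list were called, without Fhl1 and Zyx. Tpm2 was not called with DESeq2 (0.0848), and neither Tpm2 nor Zyx was called without TAC 1. Totals without mitochondrial genes also left Tpm2 and Fhl1 uncalled.

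The other branch of Srf acts through ternary complex factors (TCF) on immediate early genes, which encode fast-responding transcription factors. Of 9 tested genes, 5 were called, all lower: Fos (-2.66), Egr1 (-2.60), Fosb (-2.51), Ier2 (-2.25) and Junb (-1.99), which is 55.6% of the list beside 2.43% of all tested genes called lower. This list too was drawn up with earlier results known, and the paper names Fos, Junb and Egr1 among its changed genes. Fos had 127 and 64.3 CPM in sham and 14.1 and 16.2 in TAC. Egr1 had 172 and 86 CPM in sham and 19.2 and 23.6 in TAC. For both genes sham 1 lay well above sham 2, and both TAC libraries lay far below either. The list's median log2 difference was -1.99, and 7 of 9 were wholly lower, beside 30.3% of all tested genes. Fosb was not called without TAC 1 (edgeR adjusted p = 0.114) or with totals without mitochondrial genes (0.0533), and its log2 value was -1.37 without sham 1 and -3.12 without sham 2.

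Of 28 tested actin filament proteins, 6 were called, all higher (21.4%, beside 2.58% of all tested genes). They were Xirp2 (1.00 ± 0.09) and Xirp1 (0.79), the Xin repeat proteins that bind actin at the intercalated disc, Wdr1 (0.62) and Cfl2 (0.49), which disassemble filaments, the formin Daam1 (0.39) and the Arp2/3 subunit Arpc2 (0.33). Xirp2 had 643 and 713 CPM in sham and 1305 and 1412 in TAC. The median over the list was 0.04, and 13 of 28 were wholly higher and 4 wholly lower, beside 29.8% and 30.3% of all tested genes. With total-count scaling 2 were called, Xirp2 and Xirp1. Cfl2 and Daam1 were not called without TAC 1, Daam1 was not called without sham 1 either, and Arpc2 was not called when any 1 library was left out. In all, 3 filament proteins were called higher without TAC 1 and 1 lower, Neb, which is named after its values were seen. Totals without mitochondrial genes ended the calls of Daam1 (edgeR adjusted p = 0.0548) and Arpc2 (0.0995).

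**Figure D5:**
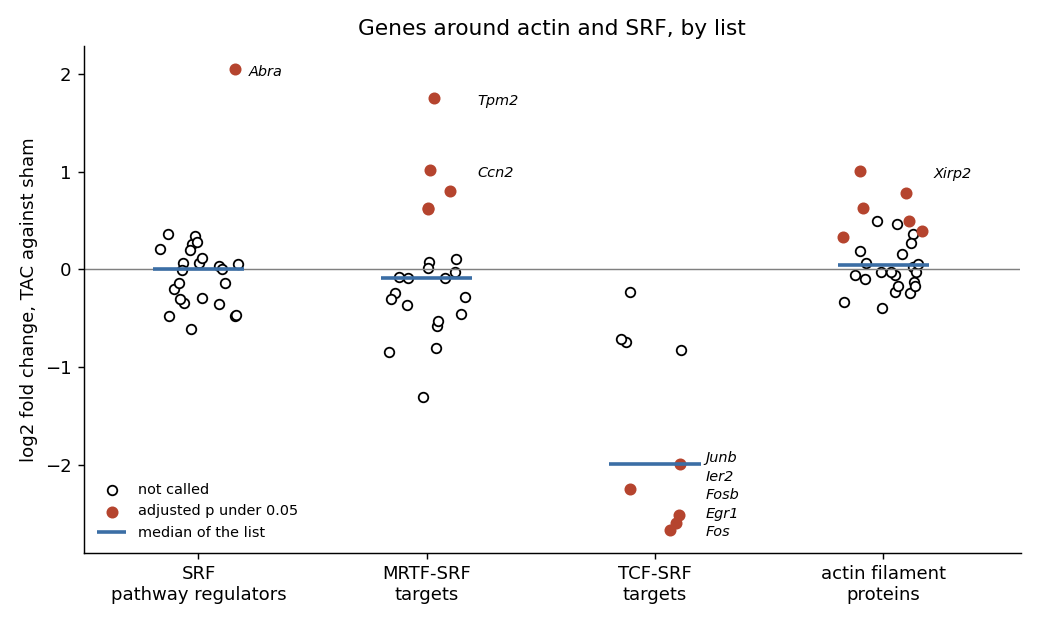
log2 fold change, TAC against sham, of the tested genes of 4 lists, 1 point per gene, filled where called, with a bar at the list's median. The 5 called TCF-SRF targets lie at -1.99 and below, and the called genes of the other lists lie above 0.

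CArG boxes were found in the promoter windows of 7 of 20 MRTF-SRF targets (35%), 2 of 19 regulators (10.5%), 1 of 7 TCF-SRF targets (14.3%) and 1 of 22 filament proteins (4.55%), beside the 1.81% of all genes. Such a match gives only the letters in the window, and the lack of one does not show that a gene has no Srf site.

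The genes whose pattern over the 4 libraries was closest to that of Acta1, by Euclidean distance of centred log2 CPM among 8484 genes with a mean of 5 CPM or more, were Edn3 (0.681), Nmrk2 (0.716), Nr4a3 (0.785), Nlrc3 (0.944) and Nppb (0.981). Nppb, which encodes the B-type natriuretic peptide, had 163 and 171 CPM in sham and 760 and 471 in TAC. For Srf the closest were Slain2 (0.017), Rab31 (0.038), Nqo1 (0.044), Eif2b4 (0.047) and Kif5b (0.051). With 4 libraries, 1231 genes lay within 0.25 of Srf and 0 of Acta1. These distances grow with the size of a change, so the counts follow the small difference of Srf and the large one of Acta1.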

How the data were processed

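Cardiomyocyte RNA from 2 sham and 2 TAC mice was sequenced, and total counts per library ranged from 24237777 to 32118323. For each of 22322 genes the authors deposited an expected count and an FPKM value per library. The deposited FPKM values are the counts divided by the library total and by a transcript length, which follows from the values themselves. The processing notes of the submitters name Bowtie2 2.2.8, StringTie 1.3.1 and the mm10 build, with no role given, and the counter, annotation and strand setting were not stated. Of the expected counts, 1432 to 1519 per library were not whole, and these were rounded.

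Groups came from sample titles. Counts were filtered with filterByExpr, scaled by TMM and tested with edgeR 4.0.16 (quasi-likelihood, R 4.3.3, limma 3.58.1) without a block, and p-values were Benjamini-Hochberg adjusted over 12499 genes and called at 0.05. Each SE is the log2 fold change divided by the root of F. The 16 rows without a symbol stayed under their gene ID. Shares used FPKM and exact permutation tests. The methods of the study state total-count normalization, which was an alternative here, beside DESeq2 1.42.0, totals without mitochondrial genes, no low-count filter, leaving out each library, a replicate block, FPKM ratios and count-based shares. The edgeR fit was tested on simulated data.

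The text names all 10 members. From each list it names the called genes and the 3 largest differences, or the 6 largest where more were called, and it names the 5 genes closest to Acta1 and to Srf. A gene that this rule names is not reported here. Members and lists were chosen with earlier results of these data known. Promoters came from RefSeq and coding sequences from GENCODE M21.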

Additional observations from a re-analysis of the deposited data

How the results depend on the processing

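Acta1 and Actg1 kept their direction under every alternative run for them and their call under each one that gave a test; the FPKM ratio (2.46 and -1.02) gave none. For the shares of Acta1 and Actc1 and their log2 ratio, leaving out a library or blocking cannot move the value beyond the replicate spread with 2 libraries per group, and counts in place of FPKM gave 16.2 percentage points for Acta1. The TCF-SRF list had 4 to 6 genes called when 1 library was left out. For Actc1, DESeq2 gave 0.35 and no low-count filter 0.35, both called, and the FPKM ratio gave 0.16. No filter also called Acta2 (-1.14) and Actb (-0.59). Srf was 0.26 with total-count scaling and no longer called. Myocd turned to -0.14 with total-count scaling, -0.045 with totals without mitochondrial genes and -0.16 by FPKM. Mrtfb, at zero, was 0.0007 with DESeq2, 0.0021 without a filter and -0.25 by FPKM. Without a filter 1676 genes, 6 members, 8 regulators and 8 MRTF-SRF targets were called. Total-count scaling called 2 regulators, 3 MRTF-SRF targets and 2 filament proteins, totals without mitochondrial genes 3 regulators and 3 MRTF-SRF targets (188 higher and 450 lower genes, median -0.11), and DESeq2 4 regulators. The cause of these shifts was not tested, except that total-count scaling moves all genes down together.

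Leaving out 1 library gave log2 values of -1.87 to -0.60 for Acta2, -0.85 to -0.27 for Actb, 0.39 to 0.52 for Srf and -0.11 to 0.11 for Mrtfb. It gave 301 genes (without TAC 1) to 1336 (without TAC 2), 2 to 5 members, 1 to 5 regulators and 3 to 9 MRTF-SRF targets. These fits assume that the lone library varies like the other group. The methods speak of pairs of sham and TAC mice without saying what a pair shares, and the replicate numbers were not taken to pair the samples: replicate differences of sham and TAC correlated at -0.278 over 8492 genes. The replicate block called 566 genes and 4 members, with Acta2 at -1.18 now called and Daam1 (adjusted p = 0.0532) and Arpc2 (0.0911) not called. Crossed pairing, chosen after seeing the data, called 2131 genes, 5 members, 8 regulators and 10 MRTF-SRF targets.

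Precision is limited by 2 mice per group, and for Actg2 and Mrtfa also by depth, at 0 to 2 and 85 to 122 counts per library.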
